A study of Mus musculus with 7 samples.

Results

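The genes described here are 10 genes of the hypoxia response and of glycolysis: Hif1a, Egln3, Slc2a1, Aldoa, Pgk1, Ldha, Pdk1, Bnip3, Ndrg1 and Adm. They were taken by symbol from the deposited gene table, where they fill 11 of 31253 rows, because Aldoa has 2 gene identifiers. The second Aldoa row (ENSMUSG00000114515) held 0 UMIs in every cell class examined, so that Aldoa below is ENSMUSG00000030695. A UMI is a unique molecular identifier, which marks 1 captured RNA molecule. The single-cell libraries came from dissociated peripheral lung of 7 mice aged 8 weeks: 3 Smad4fl/fl mice, which carry floxed Smad4 alleles and no Cre, and 4 Smad4fl/fl;Rosa26-creERT2 mice (Smad4iko), in which a tamoxifen-inducible Cre is made from the Rosa26 locus in principle in all cells. All 7 mice, the Cre-negative littermate controls included, were given 5 tamoxifen injections of 75 mg/kg between postnatal days 21 and 26. No group of mice with Cre but without floxed alleles was analysed here, so that Cre activity and loss of Smad4 cannot be told apart.

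Cells sense oxygen through prolyl hydroxylases, which mark the alpha subunits of the hypoxia-inducible factors (HIF) for destruction when oxygen is plentiful. When oxygen falls, HIF-1 alpha, the product of Hif1a, is stabilised, pairs with ARNT and turns on genes for glucose uptake, glycolysis, lactate production, mitophagy and vasodilation. Much of this control acts on the protein, so that Hif1a RNA is not a measure of HIF activity, and immune cells also raise glycolytic genes without hypoxia when they are activated. Egln3 encodes one of the prolyl hydroxylases and is itself a HIF target. Slc2a1 encodes the glucose transporter GLUT1. Aldoa (aldolase A) and Pgk1 (phosphoglycerate kinase) are glycolytic enzymes, Ldha makes lactate from pyruvate, and Pdk1 inhibits pyruvate dehydrogenase and so keeps pyruvate out of the mitochondrion. Bnip3 is a mitophagy receptor, Ndrg1 a stress-induced gene and Adm the precursor of the vasodilator peptide adrenomedullin.

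All 10 are protein-coding genes, with these positions on mm10 (GENCODE M21). On the plus strand lie Hif1a at chr12:73901375-73947530, Slc2a1 at chr4:119108711-119137983, Pgk1 at chrX:106187100-106203699, Ldha at chr7:46841475-46855627, Pdk1 at chr2:71873224-71903858, Adm at chr7:110627661-110629820. On the minus strand lie Egln3 at chr12:54178981-54203860, Aldoa at chr7:126795234-126800751, Bnip3 at chr7:138890836-138909519, Ndrg1 at chr15:66929318-66969640. The HIF complex binds short elements that contain ACGTG or GCGTG. Stretches before start sites are shown for 4 of the 7 genes called between T cell states: Egln3, Pgk1 and Ldha were higher and Pdk1 was lower in activated T cells. Aldoa, Hif1a and Ndrg1 were also called and are not shown. Ldha and Pdk1 each have a second start that is not shown, with 1 GCGTG match for Ldha and 0 matches for Pdk1. An Aldoa start also has 0 matches. Sequences are from RefSeq on GRCm38.p6, are written 5′ to 3′ on the gene's strand as the 250 bases before the start, and have each ACGTG or GCGTG match on either strand in capitals (a match on the other strand reads CACGT or CACGC). Matches on both strands overlap where the letters read CACGTG. The stretches lie at chr12:54203875-54204124 for Egln3 (minus strand), chrX:106186850-106187099 for Pgk1, chr7:46845554-46845803 for Ldha and chr2:71872974-71873223 for Pdk1 (all 3 on the plus strand), and none overlaps an annotated exon of the same strand in GENCODE M21.
Egln3: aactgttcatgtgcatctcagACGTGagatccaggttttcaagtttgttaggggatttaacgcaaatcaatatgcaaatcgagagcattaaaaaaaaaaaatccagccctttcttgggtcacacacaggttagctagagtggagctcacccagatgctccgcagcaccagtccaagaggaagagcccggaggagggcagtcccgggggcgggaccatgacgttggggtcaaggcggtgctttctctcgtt
Pgk1: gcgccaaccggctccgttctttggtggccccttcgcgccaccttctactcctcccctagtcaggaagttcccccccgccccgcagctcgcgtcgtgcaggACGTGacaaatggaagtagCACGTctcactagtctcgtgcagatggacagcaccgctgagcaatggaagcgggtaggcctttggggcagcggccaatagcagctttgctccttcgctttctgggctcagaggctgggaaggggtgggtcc
Ldha: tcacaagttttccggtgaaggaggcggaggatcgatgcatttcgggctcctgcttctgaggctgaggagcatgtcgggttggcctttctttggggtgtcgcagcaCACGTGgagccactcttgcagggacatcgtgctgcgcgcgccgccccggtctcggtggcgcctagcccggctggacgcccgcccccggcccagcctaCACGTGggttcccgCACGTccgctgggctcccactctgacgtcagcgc
Pdk1: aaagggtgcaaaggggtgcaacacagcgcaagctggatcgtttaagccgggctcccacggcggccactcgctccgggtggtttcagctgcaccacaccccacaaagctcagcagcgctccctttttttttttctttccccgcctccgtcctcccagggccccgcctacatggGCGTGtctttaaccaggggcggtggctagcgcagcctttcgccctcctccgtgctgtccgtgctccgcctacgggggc
The Ldha stretch holds 5 ACGTG matches, of which 4 are the 2 palindromes, and the Pgk1 stretch holds 2. Egln3 has 1 ACGTG match 229 bases before its start, and the Pdk1 stretch shown has 1 GCGTG match 78 bases before its start. Of the 10 genes 9 have a RefSeq promoter entry, with 13 start sites, and all but Ndrg1 were matched. Of the 13 stretches 11 hold either motif, and 2 of these are overlapping Aldoa stretches that hold the same ACGTG site. All 9 genes have one before at least 1 start, and 7 have ACGTG (all but Pdk1 and Adm). Over all 32851 start sites of the table, ACGTG occurs in 16.6%, GCGTG in 28.2% and either in 38.6% of stretches of the same length. A match describes the letters and shows no binding.

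The libraries held between 46449235 and 66557262 UMIs and 50955 cells passed filters, whose median depth per library was 4518 to 6452 UMIs. Cells were assigned to classes by sets of marker genes that hold none of the 10 genes, and a class was tested where each library had 30 or more of its cells. The 10 tested classes were T cells, natural killer (NK) cells, B cells, neutrophils, alveolar macrophages, interstitial macrophages, type 1 and type 2 conventional dendritic cells (cDC1 and cDC2), and general (gCap) and aerocyte (aCap) capillary endothelium. Group 2 innate lymphoid cells (ILC2), non-classical monocytes, plasmacytoid dendritic cells and adventitial fibroblasts had 15 or more cells per library and are given as levels. Of the 10 genes with the largest excess in each of these 14 classes, 2 to 7 were its own markers and 0 were markers of another class. Cells were assigned by these same markers, so that this describes the gates and is no separate check of identity. Smad4 had a lower mean in Smad4iko than in Smad4fl/fl libraries in 10 of 10 tested classes, without overlap in 6. In T cells the Smad4 level was 129 to 132 CPM (UMIs per 1000000 UMIs) in Smad4fl/fl and 57.6 to 85.6 in Smad4iko libraries; counts come from the 3′ end of transcripts, which may lie outside the deleted part, so that this is no measure of the recombined share. Smad4iko 3 and 4 stood apart: in 31.5% of all 83164 gene and class pairs tested for genotype, both lay above or both lay below the other 5 libraries. Pairs of libraries shared 12 to 29 cell barcodes.

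Levels below are in CPM, the UMIs of a gene per 1000000 UMIs of all genes, summed over all cells of a class in 1 library. They compare classes within 1 gene, not 1 gene with another. In these sums more RNA per cell of a type and more cells in a high state within the class cannot be told apart.

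**Figure D1:**
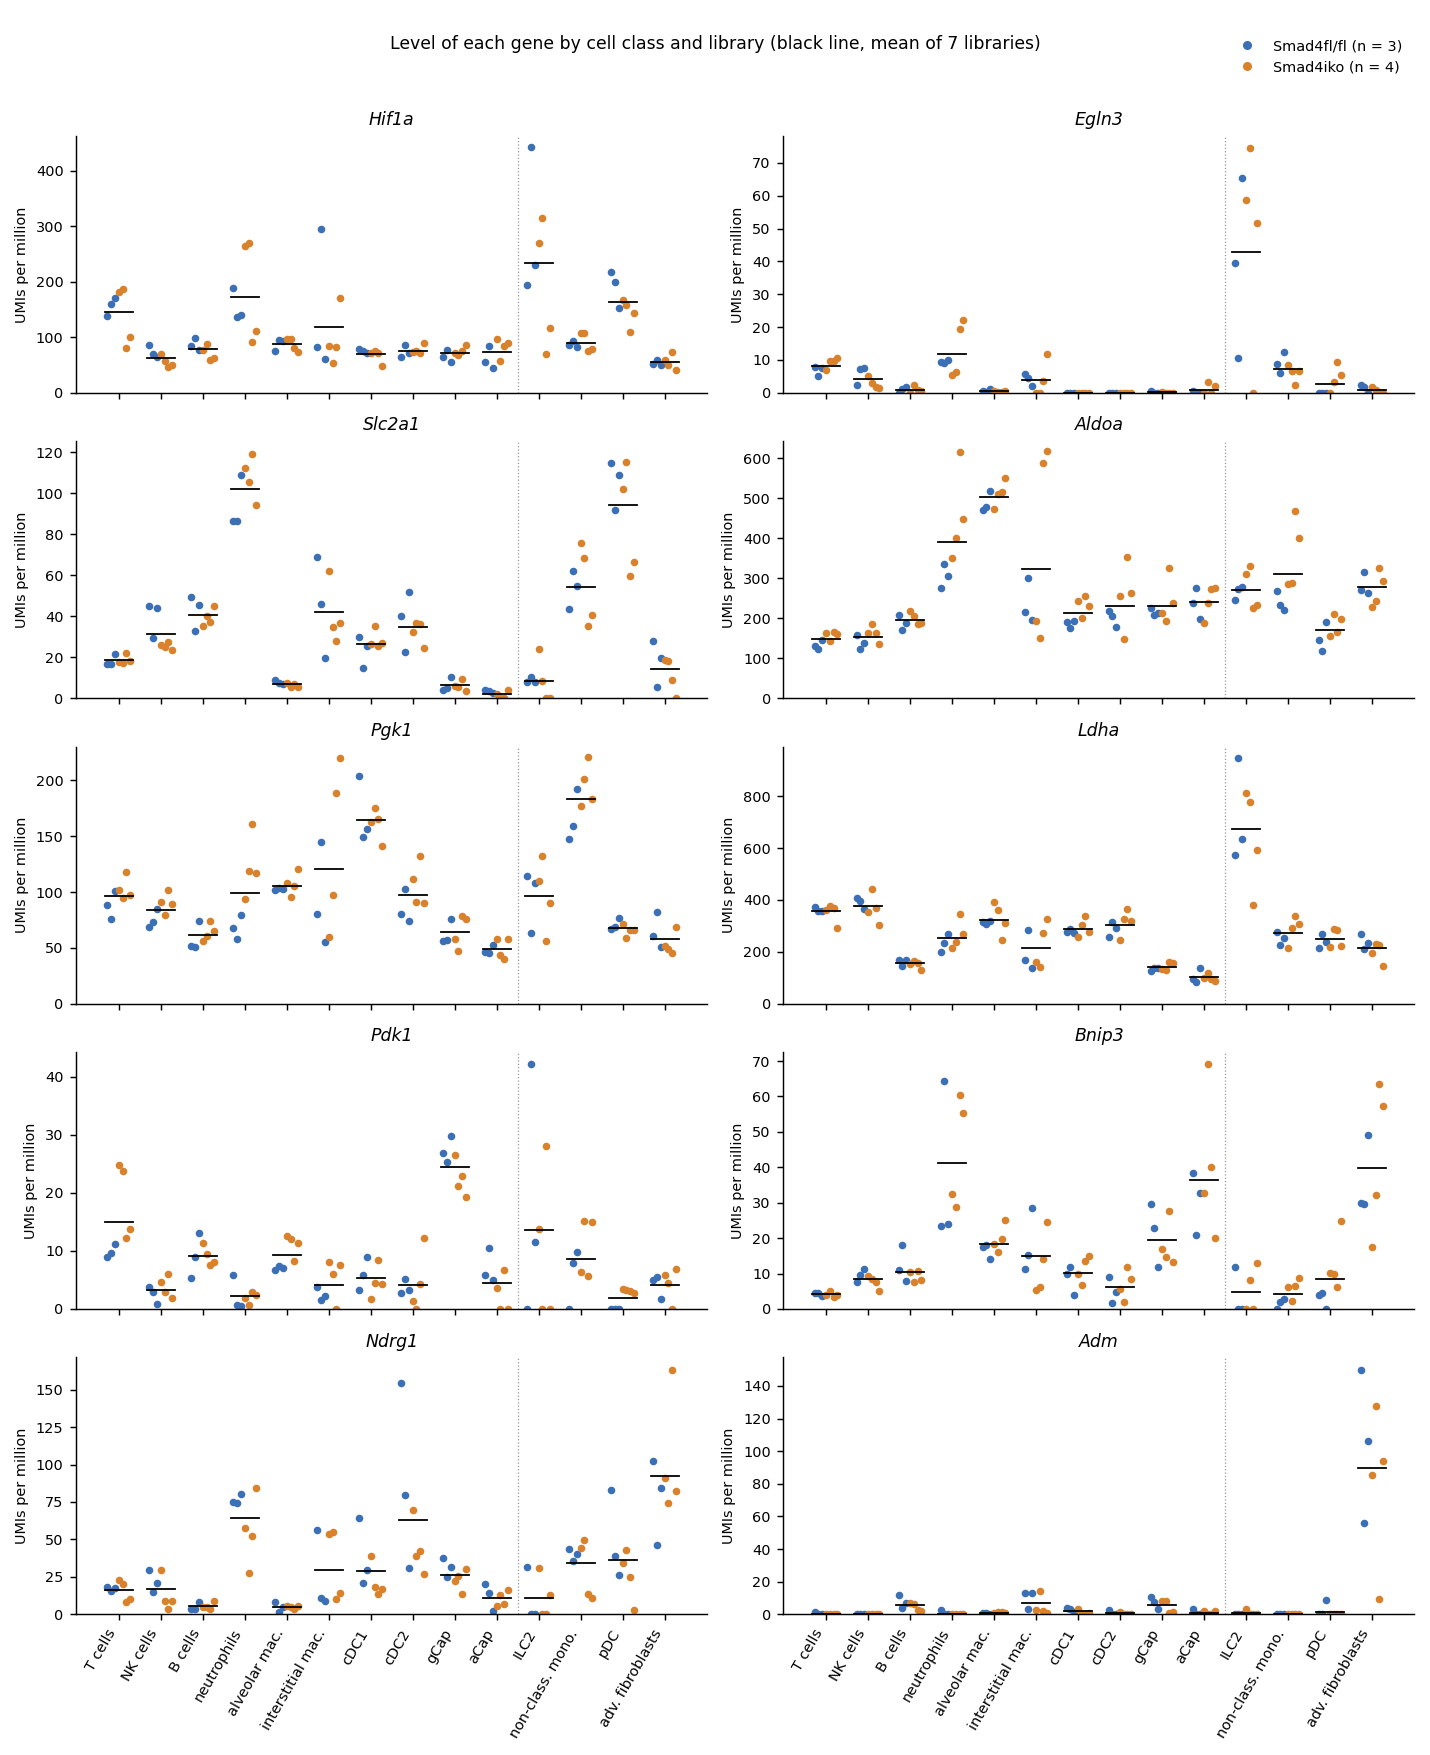
Level of each of the 10 genes (CPM, linear axes from 0) in 10 tested classes and, right of the dotted line, 4 smaller classes. Each point is 1 library, blue for Smad4fl/fl (n = 3) and orange for Smad4iko (n = 4), and the black line is the mean of 7; Slc2a1 was highest in neutrophils among tested classes (mean 102) and Adm stood far above its other levels in adventitial fibroblasts (mean 89.7).

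Hif1a was found in every class, with means from 54.7 ± 9.99 (SD, n = 7) CPM in adventitial fibroblasts to 234 ± 125 in ILC2. In neutrophils it ran from 92.0 through a median of 140 to 269, and in T cells from 81.4 through 160 to 187. The NK cell values, from 46.3 through 63.9 to 86.0, overlapped those of T cells only at the lower end. Egln3 was sharply uneven. It reached a mean of 42.9 ± 28.1 CPM in ILC2 (0 to 74.5, median 51.6, on 58 UMIs), 11.7 ± 6.59 in neutrophils (5.28 to 22.3) and 8.19 ± 1.91 in T cells (5.23 to 10.7). It had 0 UMIs in cDC1 and in cDC2, which allows up to 0.422 and 0.512 CPM over the pooled libraries (3 counts, counting error only), and 6 UMIs in gCap. Neutrophils and T cells thus had the 2 highest means of both genes among the tested classes, whereas NK cells came next for Egln3 and were lowest for Hif1a. Over the 10 tested classes the mean log2 levels of the 2 genes had a Pearson correlation of 0.77, given as a description since the classes share libraries.

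Slc2a1 levels differed widely between classes, with means from 102 CPM in neutrophils to 2.25 in aCap. In neutrophils its level ran from 86.2 through a median of 105 to 119 CPM and in plasmacytoid dendritic cells from 59.7 through 102 to 115. All neutrophil values lay above all values of B cells (32.5 to 49.1), T cells (16.4 to 22.0) and alveolar macrophages (5.43 to 8.68). The capillary classes were at the bottom, with 3.45 to 10.4 in gCap and 0 to 4.02 in aCap, where 13 UMIs were counted in all. Of the 14 classes Aldoa was highest in alveolar macrophages, between 470 and 550 in all 7 libraries, and ran from 276 through 350 to 617 in neutrophils. T cells (122 to 166) and NK cells (124 to 186) had the lowest Aldoa means of the tested classes, and neither range reached that of neutrophils. Pgk1 had its highest means of the 14 classes in non-classical monocytes (148 to 221) and cDC1 (142 to 204) and its lowest in aCap (40.0 to 58.3). Ldha, Pgk1, Aldoa and Bnip3 have processed copies elsewhere in the genome, and how the counting placed reads shared with them is not given in the sources used here, so that their levels carry that uncertainty.

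Ldha, the step to lactate, had its highest means of the 14 classes in ILC2 (379 through 635 to 948 CPM), NK cells (304 to 442) and T cells (293 to 376), and lowest in gCap (126 to 159) and aCap (83.5 to 136). The 2 lymphocyte classes did not overlap with either capillary class. Pdk1 showed another order: gCap had 19.2 to 29.8, T cells 8.97 to 24.8, aCap 0 to 10.4 and neutrophils 0.530 to 5.84. Thus gCap combined the highest Pdk1 with low Ldha, whereas NK cells had high Ldha with a Pdk1 mean of 3.26 ± 1.69 (n = 7).

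Among the other target genes, Bnip3 was high in neutrophils (23.4 to 64.3 CPM), adventitial fibroblasts (17.5 to 63.5) and aCap (20.1 to 69.1), and was lowest among tested classes in T cells (3.43 to 5.16), with no overlap between T cells and these 3. Ndrg1 reached 46.4 to 163 in adventitial fibroblasts, 27.6 to 84.1 in neutrophils and 27.1 to 154 in cDC2, where Smad4fl/fl 1 had the 154 and the other 6 libraries at most 80.0. It was 1.33 to 8.54 in alveolar macrophages. Adm was highest in adventitial fibroblasts among the 14 classes, with 9.07 in Smad4iko 3 (18 cells) and 55.7 to 150 in the other 6 libraries. Its means elsewhere were at most 6.94, in interstitial macrophages, and it had 0 UMIs in NK cells, which allows up to 0.144 CPM. Smaller classes, gated on at least 3 markers but with leading genes not examined, were pooled over libraries with exact Poisson 95% intervals that cover counting error only. There Ndrg1 was 640 (559 to 730) in 56 lymphatic endothelial cells, and Adm was 91.5 (62.6 to 129) in the same cells, of which 42 came from Smad4fl/fl 1. Adm was 70.2 (64.3 to 76.5) in 863 alveolar fibroblasts, of which 763 came from Smad4fl/fl 1. Aldoa was 845 (718 to 989) in platelets, Pgk1 was 235 (220 to 249) in classical monocytes, and Ldha was 418 (342 to 508) in basophils and mast cells and 375 (349 to 401) in ciliated cells. Egln3 was 73.1 (43.3 to 116) in 67 basophils and mast cells, and Hif1a was 230 (216 to 245) in 429 classical monocytes, of which 0 came from Smad4fl/fl 1.

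Each tested class was compared with the mean of the other 9 by limma on log2 levels (prior count 2) with the library as a block and Benjamini-Hochberg adjustment over all genes and classes. Of the 100 gene and class pairs, 35 were higher and 32 lower at an adjusted p under 0.05, where 34.5% and 35.9% of all 118700 pairs were called, shares close to those of the 10 genes. Over 15 alternative settings 43 of the 67 calls held in every one, 23 higher and 20 lower. Counts of calls per class below include those that were lost in an alternative, and the genes named with a value from this fit are among the 43 unless said otherwise; genes of the wider lists and the fit of 14 classes were not put through these alternatives. The scale shifts with the class: the median gene of neutrophils lay at -1.36 on plain totals and at -0.45 with TMM scaling, that of gCap at 0.56 and 0.14, and that of aCap at 0.48 and -0.08.

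**Figure D2:**
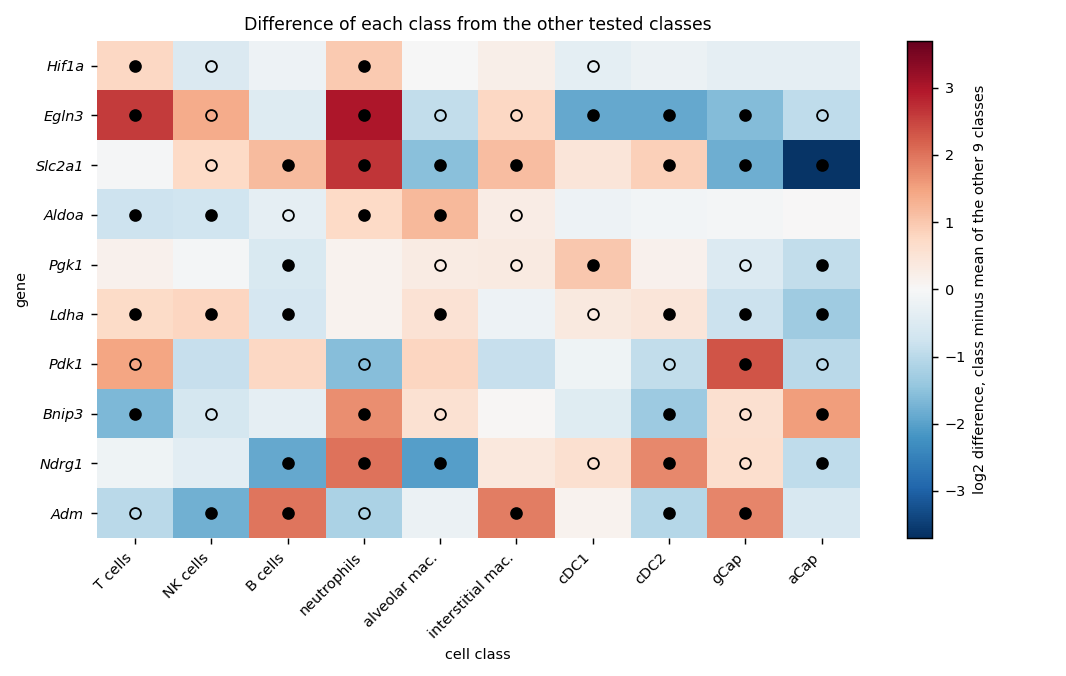
Log2 difference of each tested class (columns) from the mean of the other 9 for each gene (rows), from red (higher) to blue (lower). Circles mark an adjusted p under 0.05, and filled circles the 43 calls that held under all 15 alternatives; neutrophils have 6 filled circles, all on red.

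Neutrophils had 6 of the 10 genes higher and 2 lower, where 15.2% of all genes were higher in that class and 72.4% lower. The 6 were Egln3 (log2 difference 2.98, SE 0.34), Slc2a1 (2.64, SE 0.22), Ndrg1 (2.01, SE 0.27), Bnip3 (1.73, SE 0.23), Hif1a (0.97, SE 0.16) and Aldoa (0.74, SE 0.11), with a largest adjusted p of 1.46e-07 in limma. The median of the 10 was 0.86. The wider lists, which contain some of the 10 genes, held calls in both directions: 9 of 19 glucose uptake and glycolysis genes were higher and 7 lower (median 0.52), and 3 of 9 oxygen sensing genes were higher and 6 lower. In the first list the largest differences were those of Slc2a3, the gene of the transporter GLUT3 (5.25), Hk3, a hexokinase (4.76), and Pfkfb4 (2.69), and of the lactate and pyruvate genes the lactate exporter Slc16a3 led (6.18). Egln1, which encodes the main oxygen-sensing hydroxylase, was lower on plain totals (-1.90), where the median gene of neutrophils lay at -1.36. It was not examined with TMM scaling. Pdk1 was lower on plain totals (-1.57) but not called with TMM scaling (-0.61, adjusted p = 0.161 in limma).

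T cells had 4 calls higher and 3 lower (31.7% and 32.6% of all genes). Egln3 (2.59, SE 0.34), Hif1a (0.76, SE 0.16) and Ldha (0.70, SE 0.10) were higher, and Bnip3 (-1.67, SE 0.23) and Aldoa (-0.78, SE 0.11) lower. Pdk1 was at 1.45 in T cells but at 0.89 in the 3 Smad4fl/fl libraries alone (adjusted p = 0.0766 in limma). NK cells had 3 calls higher and 4 lower (43.1% and 26.3%), with Ldha higher (0.79), and Aldoa (-0.73) and Adm lower. B cells had 2 higher, Slc2a1 (1.18) and Adm (1.98), and 4 lower (35% and 31.9%), among them Ndrg1 (-1.89), Ldha (-0.62) and Pgk1 (-0.56).

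Alveolar macrophages had 4 calls higher and 3 lower (45.3% and 22.3% of all genes). Aldoa (1.19) and Ldha (0.53) were higher there, and Ndrg1 (-2.04) and Slc2a1 (-1.56) lower. Interstitial macrophages had 5 higher and 0 lower (24.7% and 33.4%), of which Slc2a1 (1.13) and Adm (1.88) held in every alternative. cDC1 had 3 higher and 2 lower (19.5% and 48.2%), with Pgk1 higher (1.01). cDC2 had 3 higher, Ndrg1 (1.79), Slc2a1 (0.89) and Ldha (0.43), and 4 lower (20.8% and 46.9%), among them Bnip3 (-1.34) and Adm, the latter on 5 UMIs. Egln3 was lower in both dendritic cell classes and in gCap, where it is at or near 0 UMIs, so that no fold is given.

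The gCap class had 4 calls higher and 4 lower (56.6% and 19.3% of all genes), and aCap 1 higher and 6 lower (52.8% and 26%). gCap had Pdk1 (2.32, SE 0.40) and Adm (1.81, SE 0.33) higher, and aCap had Bnip3 higher (1.53, SE 0.23). Slc2a1 was lower in both (-1.81 in gCap, -3.62 in aCap), as was Ldha (-0.80 and -1.32), and in aCap Pgk1 (-0.92) and Ndrg1 (-0.95) were lower too. In gCap the other HIF alpha subunit gene, Epas1, had the largest difference of the oxygen sensing list (7.84), and Ramp2 (8.63) and Calcrl (6.50), which encode the adrenomedullin receptor, were among the 3 largest of theirs. In a fit of all 14 classes, added after the data were seen, ILC2 had Egln3 (3.53), Ldha (1.49) and Hif1a (1.19) higher, where 15% of all genes were higher in that class. Of the 10 genes 4 were lower in ILC2 (53.7% of all genes): Ndrg1 (-2.81), Bnip3 (-2.44), Slc2a1 (-2.19) and Adm, the latter on 1 UMI. Adventitial fibroblasts had Adm (5.57), Ndrg1 (2.38) and Bnip3 (1.92) higher (31.4% of all genes) and 4 of the 10 genes lower (30.7%). Plasmacytoid dendritic cells had Slc2a1 (2.33) and Hif1a (0.84) higher (31.9%) and 5 lower (29.7%). Non-classical monocytes had 4 higher and 2 lower (23.8% and 32.7%).

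Neighbours in the order of class levels were compared within the 7 libraries by a 2-sided exact sign-flip permutation test. Its smallest possible p is 0.0156, so that adjustment over 90 steps left it little room: 0 had an adjusted p under 0.05, and 15 had an unadjusted p under 0.05. In 7 steps all 7 libraries had the same order, among them Slc2a1 from neutrophils to B cells and from T cells to alveolar macrophages, Ldha from gCap to aCap, and Pdk1 from T cells to alveolar macrophages. The orders of Hif1a, Egln3 and Ndrg1 held 0 steps with an unadjusted p under 0.05. Of the 8352 genes with a mean of at least 10 CPM, the profile over the 10 class means most like that of Slc2a1 was Birc3 (Pearson r = 0.96), that of Hif1a Slfn1 (0.96), that of Bnip3 Pdlim7 (0.95), that of Pgk1 Sh3bp1 (0.94), that of Aldoa Tlr4 (0.93) and that of Ldha Dusp5 (0.92). Ndrg1 (Socs3), Egln3 (Pnrc1), Pdk1 (Stt3b) and Adm (Lyl1) had lower best values of 0.89, 0.89, 0.86 and 0.81. Each is the highest of 8352 correlations over only 10 class means and is given as a description. Egln3 had 0 UMIs in cDC1 and cDC2 and Adm 0 in NK cells, so that their profiles rest partly on the prior count. Among the 10 genes themselves Pgk1 and Ldha followed Hif1a and Egln3 with 0.73, and Ldha and Bnip3 had the lowest value, -0.59.

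T cells were split by state markers into 10308 naive-like cells (Ccr7, Lef1, Tcf7 and similar) and 1518 activated cells (Icos, Cxcr6, Ccl5, Ctla4 and similar), and both states of the same library were compared. In activated cells 6 of the 9 genes tested were higher and 1 was lower, where 40% of all genes were higher and 15.7% lower. The median difference of the 9 was 0.80, and that of all genes 0.18.

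Egln3 was 2.04 to 3.90 CPM in naive-like cells and 18.7 to 39.8 in activated cells, so that the states did not overlap (log2 difference 3.07, SE 0.18, limma adjusted p = 2.38e-09). Aldoa rose from 106 to 136 in naive-like to 229 to 326 in activated cells (1.18, SE 0.07), and Pgk1 from 65.7 to 94.5 to 146 to 201 (1.07, SE 0.07). Ldha rose from 239 to 333 to 468 to 598 (0.80, SE 0.05), again with all activated values above all naive-like values. Hif1a was higher in the activated cells of all 7 libraries (0.87, SE 0.09), but its ranges of 61.8 to 165 and 139 to 271 overlapped through Smad4iko 3, whose activated cells had 138.9; all other activated values lay above all naive-like values. Ndrg1 was higher in 6 of 7 libraries (0.69, SE 0.18, limma adjusted p = 0.00539), Smad4fl/fl 1 being the exception with 13.3 against 18.5.

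Pdk1 went the other way. It was 10.4, 10.48, 12.1, 28.8, 26.9, 13.97 and 16.3 CPM in the naive-like cells of Smad4fl/fl 1 to 3 and Smad4iko 1 to 4, and 2.42, 3.64, 7.64, 8.39, 8.79, 5.30 and 4.20 in the activated cells. It was lower in the activated cells of all 7 libraries (-1.50, SE 0.18, limma adjusted p = 4.33e-06). Slc2a1 (0.20, SE 0.16, higher in 5 of 7) and Bnip3 (0.08, SE 0.26, 4 of 7) did not pass, and Adm was too low to be tested. The 7 calls held in all 11 alternatives, among them cells thinned to 3000 UMIs and TMM scaling.

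**Figure D3:**
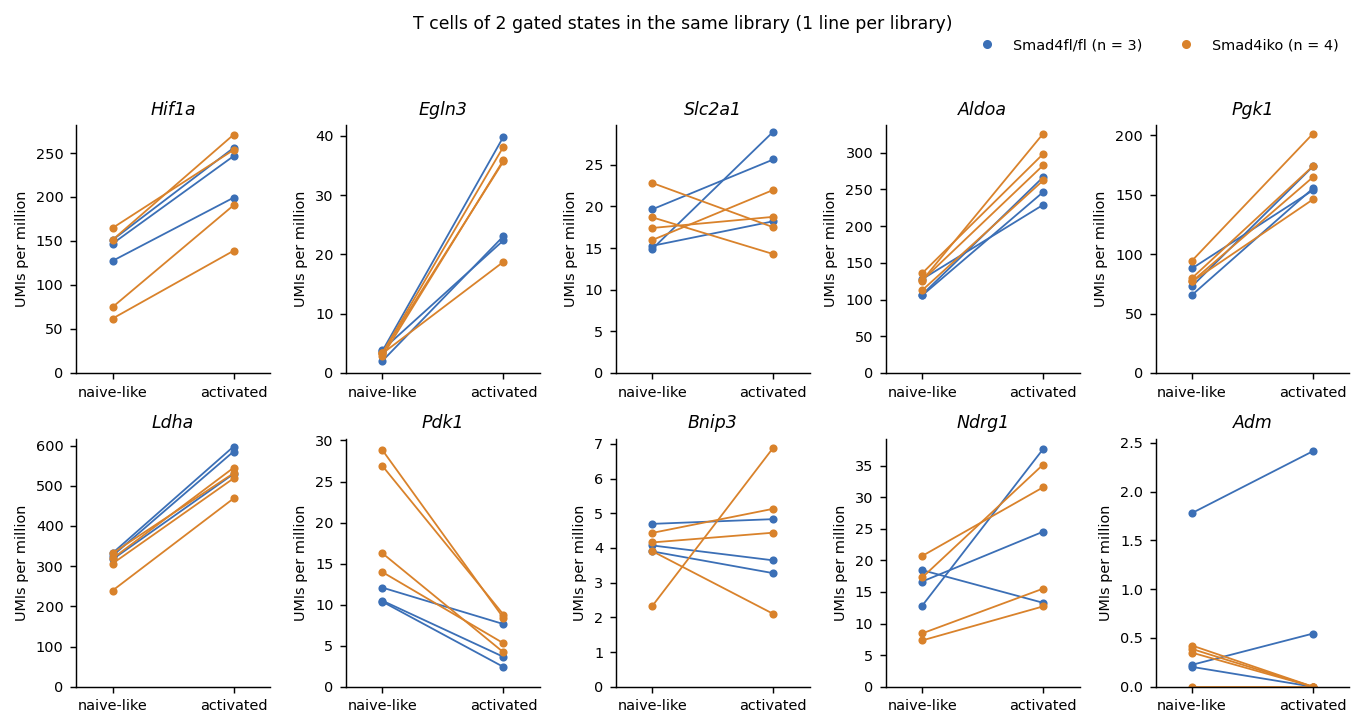
Level of each gene (CPM, axes from 0) in naive-like and activated T cells, 1 line per library, blue for Smad4fl/fl and orange for Smad4iko. All 7 lines climb for Egln3, Aldoa, Pgk1, Ldha and Hif1a, and all 7 fall for Pdk1.

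Of 16 tested genes for glucose uptake and glycolytic enzymes, a list that contains some of the 10, 14 were higher and 1 was lower (median 0.97), the lower one being Pfkfb4 (-0.86). Of 10 oxygen sensing and HIF subunit genes 6 were higher and 2 lower (Arnt at -0.46 and Hif1an at -0.54), with a median of 0.51. Of 17 other HIF target genes 8 were higher and 4 lower, with a median of 0.23, near the 0.18 of all genes. Of all genes 40% were higher and 15.7% lower. Picked after their values were seen, Hk2, the inducible hexokinase, had a log2 difference of 4.42, Ddit4 of 3.39 and Slc2a3 of 1.06. Arnt2 differed by 5.67, and the HIF targets P4ha1 (-0.62) and Kdm3a (-0.78) were lower. Differences among kinds of activated T cells were not tested.

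Alveolar macrophages were split by cell cycle markers into 372 cycling and 4602 other cells, the rest lying between the gates. Of 8 genes tested, 2 were higher and 2 lower in cycling cells, where 27.9% of all genes were higher and 16.6% lower. Pgk1 was 110 to 162 CPM in cycling and 90.5 to 112 in other cells and was higher in all 7 libraries (0.51, SE 0.06). Aldoa was 284 to 347 against 486 to 580, without overlap (-0.71, SE 0.05, limma adjusted p = 1.51e-09), and Ldha was lower in all 7 libraries (-0.32, SE 0.05). Glycolytic enzymes of 1 pathway thus differed in opposite directions. Ndrg1 was higher in 7 of 7 libraries (1.32, SE 0.25) but at low levels, with means of 11.9 and 3.93, and was not testable after thinning. Cycling cells held more UMIs, with a median of 18850 against 11536. After thinning to 3000 UMIs per cell Pgk1 (0.55), Aldoa (-0.59) and Ldha (-0.30) kept their calls.

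Whether these genes change with the loss of Smad4 was tested by edgeR's quasi-likelihood test on the summed counts of each class, with genotype as the only term. Of the 100 gene and class pairs 77 passed the filter on low counts and 0 had an adjusted p under 0.05 (0.0385% of all 83164 pairs did). At an unadjusted p under 0.05 there were 8, 6 higher and 2 lower in Smad4iko, or 10.4% where 6.96% of all pairs were called; DESeq2 called 1 pair after adjustment (0.278% of all pairs). The 77 differences ran from -1.11 to 1.07 with a median of 0.08, and 47 of them were above 0 (50.4% of all pairs). In 6 pairs the genotypes did not overlap, or 7.79% against 7.74% of all pairs, with Smad4iko above in 5 (3.65% of all pairs) and below in 1 (4.09%). The mice are separate animals, but p-values cover only the spread between these 7 libraries.

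**Figure D4:**
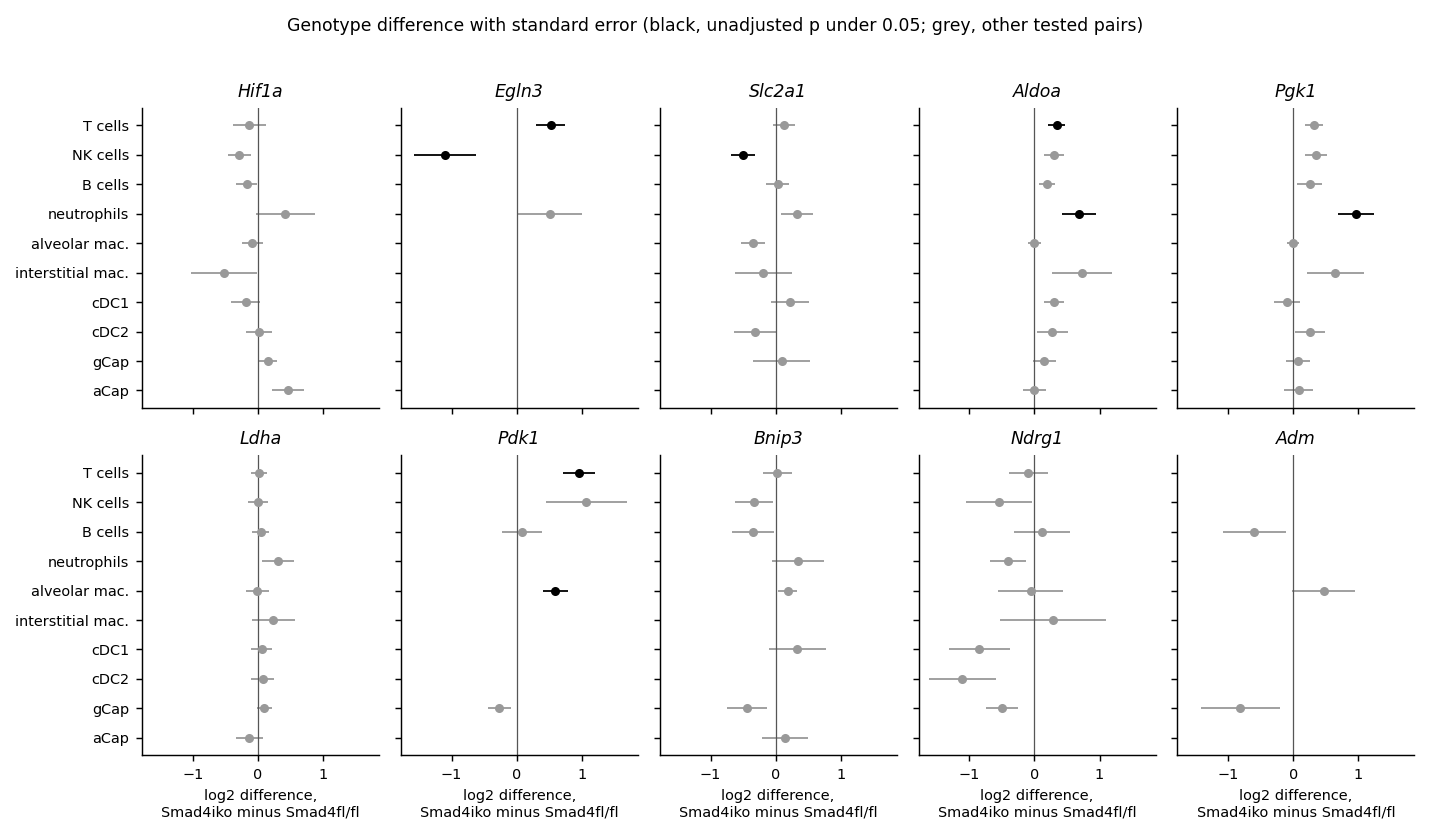
Log2 difference of Smad4iko (n = 4) from Smad4fl/fl (n = 3) with its standard error for the 77 gene and class pairs tested by edgeR, 1 panel per gene and 1 row per class. Black points mark the 8 pairs with an unadjusted p under 0.05; Pdk1 in T cells lies at 0.95 and Pgk1 in neutrophils at 0.97.

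Pdk1 in T cells had the smallest p. Its level was 8.97, 9.70 and 11.1 CPM in Smad4fl/fl 1 to 3 and 24.8, 23.7, 12.2 and 13.8 in Smad4iko 1 to 4, so that all 4 Smad4iko libraries lay above all controls and libraries 1 and 2 far above. The log2 difference was 0.95 (SE 0.24; unadjusted p = 0.00347, adjusted p = 0.289 in edgeR). DESeq2 gave 0.95 with an adjusted p of 0.0433, and edgeR without Smad4iko 3 and 4 gave 1.28 with 0.0391. With a term for these 2 libraries the adjusted p was 0.0138 in edgeR. Both of these edgeR fits set only Smad4iko 1 and 2, which had the highest values, against the controls. They are therefore not separate support. Over all 19 alternatives the difference ran from 0.82 to 1.28, with an unadjusted p under 0.05 in all 19 and an adjusted p between 0.0138 and 0.730.

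In naive-like T cells alone Pdk1 was 10.97 ± 0.957 (SD, n = 3) in Smad4fl/fl and 21.5 ± 7.46 (n = 4) in Smad4iko. The log2 difference was 1.05 (SE 0.23, unadjusted p = 0.0013, adjusted p = 0.746 in edgeR). Of the 10852 genes tested in these cells 0 passed adjustment and 6.07% had an unadjusted p under 0.05. In activated T cells it was 4.56 ± 2.73 and 6.67 ± 2.27 (0.43, SE 0.46; adjusted p = 0.714 in edgeR). The share of activated cells among T cells was 6.07 to 10.4% in Smad4fl/fl and 12.2 to 17.0% in Smad4iko libraries, without overlap. Of the activated-state markers, S100a4 and Itgae were themselves called for genotype in T cells. In this share a shift of cells and a shift of these markers cannot be told apart. Activated cells had less Pdk1, and the part of their share in the Pdk1 difference was not tested. Alveolar macrophages also had Pdk1 levels without overlap, 6.66 to 7.39 in Smad4fl/fl against 8.22 to 12.6 in Smad4iko libraries (0.59, SE 0.19; adjusted p = 0.693 in edgeR). In gCap, where Pdk1 is highest, the difference was -0.27. The difference between the T cell and gCap values was 1.09 (SE 0.26; adjusted p = 0.752 in limma). Of 296 such tests between classes over the 10 genes 0 passed adjustment (0.000347% of all did) and 22 had an unadjusted p under 0.05, or 7.43% against 6.61% of all.

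**Figure D5:**
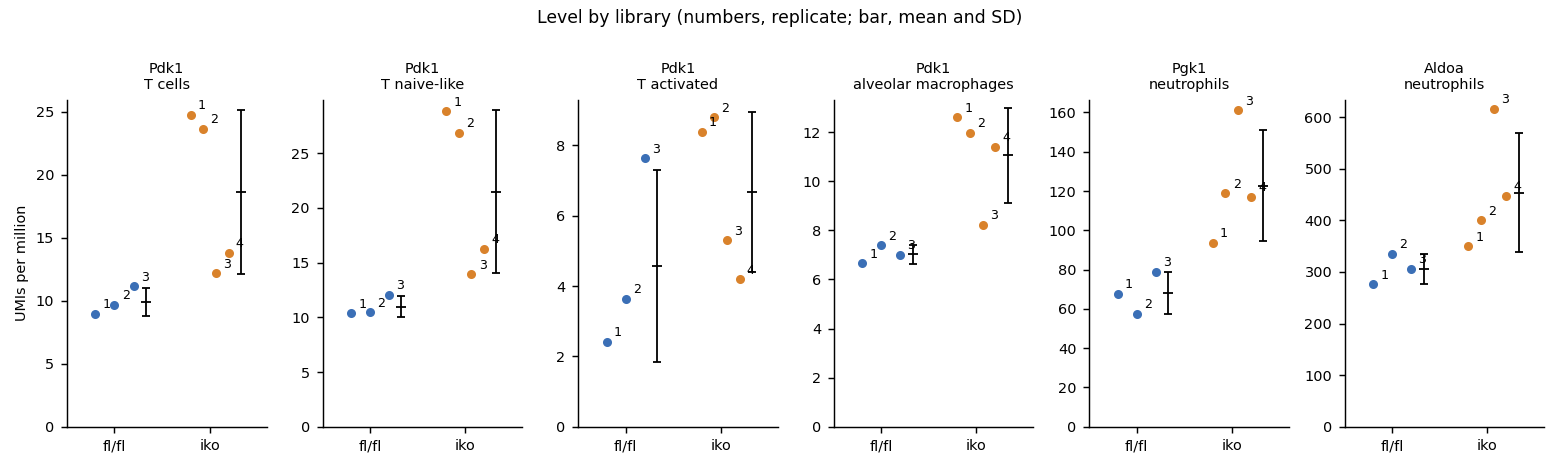
Level by library (CPM, axes from 0) of Pdk1 in all, naive-like and activated T cells and in alveolar macrophages, and of Pgk1 and Aldoa in neutrophils; numbers give the replicate and the bars the mean and SD. In the panels other than activated T cells the Smad4iko points lie above all Smad4fl/fl points, and in T cells Smad4iko 1 and 2 are the highest.

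Neutrophils gave 2 of the other pairs. Pgk1 was 67.8, 57.5 and 79.0 CPM in Smad4fl/fl and 93.7, 119, 161 and 117 in Smad4iko libraries (0.97, SE 0.28; adjusted p = 0.405 in edgeR). Aldoa was 276, 335 and 306 against 350, 401, 617 and 448 (0.68, SE 0.26; adjusted p = 0.512 in edgeR). Neither pair overlapped, and Smad4iko 3 was highest in both. The summed neutrophil markers were also without overlap, 55401 to 118927 CPM in Smad4fl/fl and 165730 to 225873 in Smad4iko neutrophils, and their part in these differences was not tested. Pgk1 is X-linked, and Smad4fl/fl 3 and Smad4iko 3, each the highest of its genotype, were female as read from Xist and Ddx3y. With sex as a term the difference was 1.00 (adjusted p = 0.343 in edgeR).

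The last 4 pairs were smaller or rested on few UMIs. Aldoa in T cells was 130, 122 and 146 against 163, 143, 166 and 161 (0.34, SE 0.12), and Egln3 in T cells was 7.80, 5.23 and 7.53 against 6.80, 9.53, 9.77 and 10.7 (0.52, SE 0.23). Both genes were higher in activated T cells, whose gated share was larger in Smad4iko. Within activated cells the differences were 0.33 and 0.31, and within naive-like cells 0.26 and 0.13. The part of that share in these differences was not tested. In NK cells Slc2a1 was 44.8, 29.3 and 44.0 against 26.1, 24.8, 27.6 and 23.6, without overlap (-0.51, SE 0.18), and Egln3 was 2.49, 7.32 and 7.67 against 5.16, 2.86, 1.70 and 1.55 (-1.10, SE 0.47). The adjusted p-values of these 4 were 0.469 to 0.650 in edgeR. Of the lists around the 10 genes, 0 of 158 glucose uptake and glycolysis pairs and 0 of 163 other HIF target pairs passed adjustment in edgeR, with 14 (8.86%) and 22 (13.497%) at an unadjusted p under 0.05, against 6.96% of all pairs. The oxygen sensing list had 8 of 74 pairs (10.8%), the lactate and pyruvate list 4 of 81 (4.94%) and the adrenomedullin receptor genes 1 of 31 (3.23%), with 0 passing adjustment.

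Hif1a differed between libraries of 1 genotype. Smad4iko 3 and 4 were its 2 lowest libraries in T cells, NK cells, B cells, neutrophils and cDC1, 5 of 10 classes, where 16.1% of all pairs put both below the other 5. These classes share the same libraries. Over the 77 tested pairs of the 10 genes, both lay above or both lay below the other 5 in 27.3%, against 31.5% of all pairs. In neutrophils the Hif1a levels of Smad4iko 3 and 4 were 92.0 and 111 CPM, while Smad4iko 1 and 2 had the highest values, 264 and 269. In neutrophils and T cells Smad4iko 3 and 4, lowest in Hif1a, had the highest summed levels of dissociation response genes (Fos, Jun, Hspa1a and similar). The sums of NK cells, B cells and cDC1 are not given here. In interstitial macrophages, described below, Smad4iko 3 and 4 were instead among the libraries with the lowest sums. In neutrophils the sum was 15353 and 15185 in Smad4iko 3 and 4, 5672 and 4636 in Smad4iko 1 and 2, and 9843 to 12500 in Smad4fl/fl. In T cells it was 4558 and 4455 against 2301 to 3364 in the other 5 libraries, and erythroid markers summed to 1082 and 784 CPM there against at most 58.7. Their part in the Hif1a levels was not tested. The genotype difference of Hif1a ran from -0.52 to 0.47 over the 10 classes, with a smallest adjusted p of 0.495 in edgeR.

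In interstitial macrophages several genes differed widely between libraries. Aldoa was 588 and 617 CPM in Smad4iko 3 and 4 against 150 to 301 in the other 5, and Pgk1 was 189 and 220 against 54.9 to 145. The excess of Aldoa over other classes (0.26) became -0.10 without these 2 libraries, and that of Pgk1 fell from 0.32 to 0.02. Smad4fl/fl 2 had the highest Hif1a of the class, 295 against 52.8 to 170. Smad4fl/fl 2 and Smad4iko 3 and 4 also had the lowest sums of dissociation response genes there, 8394 to 10590 against 16731 to 22102, and their part in these levels was not tested.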

How the data were processed

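Lung single-cell libraries (10x Genomics 3′ chemistry, per the labels' protocols) were deposited by the authors as gene by barcode matrices of raw UMI counts, 1 per mouse, made with Cell Ranger 6.1.1 per the file headers; fastp and UMI-tools and the build mm10 are named in the submitters' processing notes. Other settings of the counting are not given in the sources used here. Gene coordinates and exons came from GENCODE M21 and promoters from RefSeq. The members and gene lists were chosen with earlier results of these data known.

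Cells with at least 300 genes, 600 UMIs and at most 20% mitochondrial UMIs were kept (50955 of 55671 barcodes). A marker counted as present above 5% of its 99.9th percentile; a cell took the class with the largest share of markers present, given at least 3 markers and a lead of 0.2. The scoring rule was set after the files were seen, without the members' values. Cells between 2 classes (8.24%), which include doublets of unlike cells, and cells with too few markers (1.89%) were left out, and no doublet caller was run; 40107 cells entered the 10 tested classes. The UMIs of each gene were added up over the cells of a class in each library. Genotype was tested with edgeR 4.0.16 (filterByExpr, TMM, quasi-likelihood test) within each class, classes and states with limma 3.58.1 on log2 values (prior count 2, library as block), all with Benjamini-Hochberg adjustment at 0.05; DESeq2 1.42.0 was an alternative. State cells were called from at least 2 state markers (3 of 8 for cycling), not all of which are named here. The scripts were tested on simulated data. Named genotype pairs are those with an unadjusted p under 0.05, since none passed adjustment; pathway genes named in the class comparison are among the 3 largest of their list. Alternatives covered tool, scaling, filter, prior count, gate, cell filters, sex, replicate block, thinning and leaving out libraries. The replicate numbers were not used to pair mice.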

Additional observations from a re-analysis of the deposited data

Results flagged for a closer look

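In 77 gene and class pairs the 4 Smad4iko libraries were checked for a value far from the others, by Dixon's criterion at 95%, which chance meets in about 1 of 20 groups. It picked out 1: Hif1a in cDC1, where Smad4iko 4 had 48.9 CPM (UMIs per 1000000 UMIs) and the other 3 libraries 70.9 to 74.5. Of 296 tests of a genotype difference between 2 classes over the 10 genes, 0 passed adjustment in limma and 22 had an unadjusted p under 0.05.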

How the results depend on the processing

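The count of genotype calls among the 10 genes was 0 in 18 of 21 alternatives (2 of them within 1 T cell state) and 1 in 3: with DESeq2, with a term for Smad4iko 3 and 4, and with these 2 libraries left out. The 1 call was Pdk1 in T cells each time, and the last 2 of these settings both set only Smad4iko 1 and 2 against the controls. Pairs at an unadjusted p under 0.05 numbered 5 to 12 when each library was left out in turn, with 5 without Smad4fl/fl 1 and 5 without Smad4iko 3. With the replicate block there were 0 calls and 10 pairs at an unadjusted p under 0.05; over all genes the block raised the calls from 32 to 75. Correlations of same-numbered libraries were mixed: 17 of 30 were over 0.1 (-0.28 to 0.39), with all 3 over 0.1 in 0 of 10 classes. Among the 4 Smad4iko libraries, a Smad4fl/fl library correlated best with that of its own number in 12 of 30 cases. These cases are the same 3 Smad4fl/fl libraries in 10 classes and are not independent. Over the classes the values ran from 0.117 to 0.390 for number 1 and from 0.0456 to 0.207 for number 3. For number 2 they ran from -0.275 to 0.0247. Both libraries numbered 3 were female as read from Xist and Ddx3y. Whether equal numbers mark paired mice is not known from this. Without the low count filter 832 pairs of all genes were called in place of 32, 306 with DESeq2, 17 without TMM, 12 without cells of over 3 times the median UMIs, and 6 to 49 with 1 library left out. In the class comparison 24 of 67 calls were lost under at least 1 of 15 alternatives, 18 of them with Smad4fl/fl libraries only (3 mice) and 11 with TMM scaling. Directions turned for Pdk1 in aCap with Smad4fl/fl libraries only (0.32) and Aldoa in interstitial macrophages without Smad4iko 3 and 4 (-0.10); the cause was not tested. In cycling macrophages the higher calls numbered 1 after thinning, when 5 genes were testable. The 7 calls in activated T cells held in all 11 alternatives. Low counts limit Egln3, Pdk1 and Adm, of which 3, 5 and 3 classes could be tested for genotype.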
